A study of Homo sapiens with 4 samples.

Results

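Integrins and laminins are the receptors and ligands through which a cell holds on to its basement membrane, and 37 genes of these families were examined for DNA methylation in SKOV3 cells with and without LY75. The genes comprised 18 integrin alpha subunits, 8 integrin beta subunits and 11 laminin chains, out of 20136 protein-coding genes in the annotation. The list was made by family membership, at a time when earlier results of these data were known. Each listed tile of 1000 bp was taken as a differentially methylated region (DMR) and given to a gene whose span it overlapped, with 5 kb added to the span on each side. In this way 195 of the 72455 tiles listed in any comparison belonged to an integrin or laminin gene.

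SKOV3 cells are a human ovarian cancer line of mesenchymal-like form, and LY75 is an endocytic receptor of the C-type lectin family. Reduced representation bisulfite sequencing (RRBS) had been run on 4 libraries, 1 per stable clone. The clones with mesenchymal phenotype (SKOV3-M) were shC-S, with a control shRNA, and LY75-R-S, in which an shRNA-resistant LY75 cDNA was put into the LY75 knockdown cells. The clones with epithelial phenotype (SKOV3-E) were sh-LY75-S, with LY75 suppressed by shRNA, and LY75-KO-S, with LY75 inactivated by CRISPR/Cas9. Of the 3 comparisons deposited, the first set shC-S against sh-LY75-S (the shRNA comparison) and the second set LY75-R-S against LY75-KO-S (the CRISPR comparison). The third was a mix of all 4 libraries. By the study's listing it set shC-S and LY75-R-S together against sh-LY75-S and LY75-KO-S together. The shRNA and CRISPR comparisons, together called the single comparisons, share no library, although LY75-R-S was derived from LY75 knockdown cells, whereas the mix holds the libraries of both. Each value is a difference in percent methylation between libraries, in percentage points (points below), with positive values taken to mean hypermethylation in SKOV3-E cells. This order was settled for the shRNA comparison, where 10 of 10 genes whose direction the study states had the matching sign, but for the CRISPR comparison it rests on the stated grouping of the mix, and the name of that table puts the SKOV3-E clone first, unlike that of the shRNA comparison. The study's own listing puts the SKOV3-M clone first in both single comparisons, which by itself does not fix the sign of the deposited values. All signs given for the CRISPR comparison, and their agreement with the shRNA comparison, hold under the order taken here. No clone had a replicate, and the methylation level and read depth of each library were not part of the values used. The differences thus describe 4 clones and could not be tested against a spread between replicates. The deposited tables list only tiles with a difference of at least 25 points, and a tile that is not listed was either below the thresholds or not covered.

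An integrin is a dimer of an alpha and a beta subunit that binds matrix outside the cell and connects to actin inside it. The alpha subunit largely sets the ligand, which may be collagen, laminin, proteins with an RGD motif such as fibronectin and vitronectin, or, on leukocytes, receptors on other cells. Laminins are trimers of an alpha, a beta and a gamma chain that polymerise into the sheet of the basement membrane, on which epithelial cells are polarised. Epithelial and mesenchymal cells differ in the integrins and laminins they use, and in ovarian cancer these receptors take part in the attachment of tumour cells to the peritoneum. Methylation of CpGs at a transcription start site (TSS) commonly goes with silencing, whereas gene bodies are often methylated in expressed genes.

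Stretches of 250 bases just upstream of a TSS are given as examples, and their CpGs and MspI sites (CCGG) are counted below. All were read from GRCh37 (hg19) on the strand of the gene, 5' to 3', with each CpG in capitals. ITGAV is shown since a DMR near that TSS was listed in both single comparisons. ITGA8 and LAMA3 were chosen after their values were seen, as CpG-rich promoters with hypomethylated DMRs. A further pair of stretches, upstream of ITGB2, overlapped an annotated exon and is not printed.
ITGAV: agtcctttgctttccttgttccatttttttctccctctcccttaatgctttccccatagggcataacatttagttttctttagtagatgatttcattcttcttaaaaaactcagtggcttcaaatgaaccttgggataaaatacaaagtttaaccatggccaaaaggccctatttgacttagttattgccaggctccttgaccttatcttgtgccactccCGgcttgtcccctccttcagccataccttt
ITGA8: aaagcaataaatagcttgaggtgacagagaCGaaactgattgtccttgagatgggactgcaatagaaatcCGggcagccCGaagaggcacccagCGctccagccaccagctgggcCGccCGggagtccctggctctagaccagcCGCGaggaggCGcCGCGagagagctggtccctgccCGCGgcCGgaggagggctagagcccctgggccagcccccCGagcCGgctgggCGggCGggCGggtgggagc
LAMA3: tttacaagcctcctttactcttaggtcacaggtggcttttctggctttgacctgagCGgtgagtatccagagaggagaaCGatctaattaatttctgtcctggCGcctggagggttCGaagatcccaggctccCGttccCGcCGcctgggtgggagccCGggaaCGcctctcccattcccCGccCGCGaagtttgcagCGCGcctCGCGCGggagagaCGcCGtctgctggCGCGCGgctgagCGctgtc

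The ITGAV stretch (chr2:187464682-187464931, plus strand) lies before an internal TSS and holds 1 CpG. That CpG is the centre of its only CCGG, the site cut by MspI. The ITGA8 stretch (chr10:15761922-15762171, minus strand) holds 19 CpGs and 4 CCGG sites, and the LAMA3 stretch (chr18:21269167-21269416, plus strand) holds 23 CpGs and 1 CCGG site. Over the 20136 protein-coding genes, the median for the same stretch before the canonical TSS was 18.0 CpGs, and 72.3% of the stretches held a CCGG.

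DMRs lay in or around 34 of the 37 genes. The exceptions were ITGA4, a receptor for VCAM1 and fibronectin, LAMB2, a chain of kidney and synaptic laminins, and LAMB4, the least studied beta chain. In ITGA4 only 5 tiles could be reached by MspI fragments, and in LAMB2 and LAMB4 12 each, out of 783 in all members. In the shRNA comparison, 138 DMRs fell in 31 of 37 genes (83.8%), against 60.3% of all protein-coding genes. In the CRISPR comparison, 84 DMRs fell in 23 genes (62.2%, against 46.8%), and in the mix 58 DMRs fell in 26 genes (70.3%, against 38.3%). Integrin and laminin genes are long, with a median span of 81739 bp against 27217 bp, and a long gene has more tiles that can be listed.

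The share of tiles listed takes that length into account. Of the 783 tiles in these genes that MspI fragments could reach, 16.2% were DMRs in the shRNA comparison (95% Wilson interval 13.8 to 19.0), against 12.4% of all 384553 reachable tiles and 11.6% of those around protein-coding genes. In the CRISPR comparison the share was 9.71% (7.83 to 12), against 6.63% and 6.13%, and in the mix 7.28% (5.66 to 9.32), against 5.14% and 4.83%. The intervals of the members lay above these backgrounds in each comparison, but they cover counting error alone, which takes no account of neighbouring tiles that move together. By class, 3.50% of the reachable tiles of beta subunits were listed in the CRISPR comparison (1.5 to 7.92), beside 10.6% for alpha subunits (7.75 to 14.3) and 11.7% for laminins (8.51 to 15.8). These shares leave out DMRs in tiles that the fragments were not expected to reach, and did so unevenly, with 5 of 7 DMRs of beta subunits counted beside 36 of 40 for alpha subunits and 35 of 37 for laminins. No test of the difference was made. In the shRNA comparison the same shares were 16.8%, 16.8% and 15.3% for alpha subunits, beta subunits and laminins, and in the mix 7.65%, 8.39% and 6.33%.

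**Figure D1:**
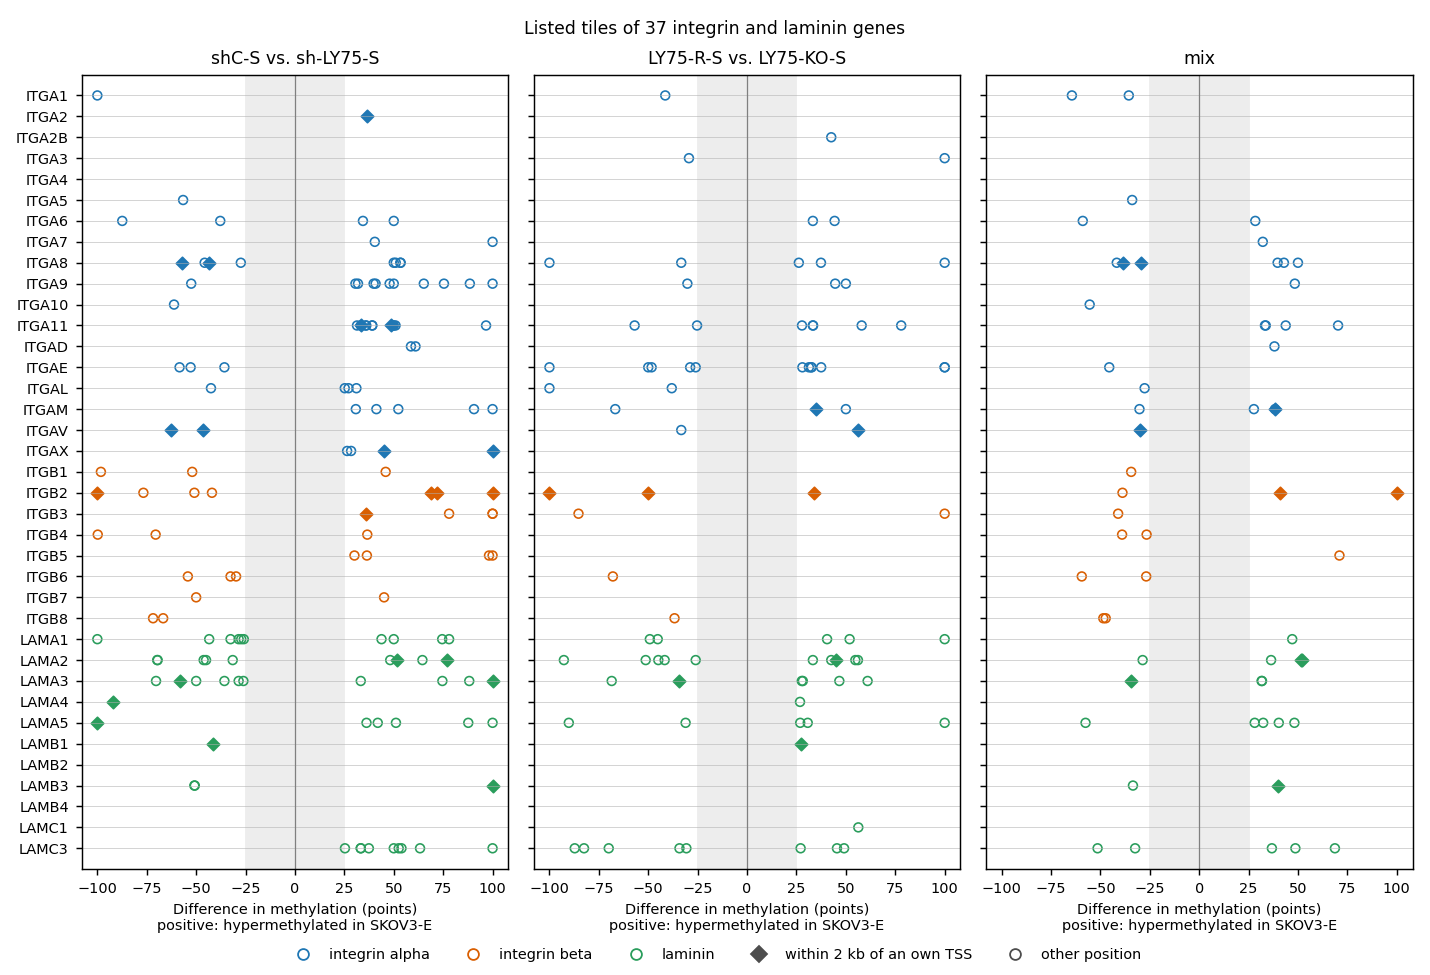
Difference in methylation (x axis, percentage points) of each DMR of the 37 genes (y axis), with 1 panel per comparison and 1 point per tile; diamonds lie within 2 kb of a TSS of the gene, and the grey band is the range that the tables do not list. Over the panels together many genes have points on both sides of 0, ITGA11 and LAMC3 lie to the right alone in the shRNA comparison, and ITGB6 and ITGB8 lie to the left in all panels. Points of the CRISPR panel would change sides under the opposite order of subtraction.

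Hypermethylation in SKOV3-E cells was the commoner direction among member DMRs, as it was among all DMRs, with the order of subtraction taken above. In the shRNA comparison, 86 of 138 were hypermethylated (62.3%, 54.0 to 70.0), and the share over all 51243 DMRs was 64.7%. In the CRISPR comparison, 47 of 84 were hypermethylated (56.0%, 45.3 to 66.1), and the share over all 28282 DMRs was 54.7%. In the mix these were 31 of 58 (53.4%, 40.8 to 65.7) and 65.0% of 20986. The shares of the members were near the background in the single comparisons and lower in the mix, where the interval still reached it. With the opposite order of subtraction in the CRISPR comparison the share there would be 44%, beside 12813 of all 28282 DMRs. The median size of a difference was like that of all DMRs, with 50.0 and 50.0 points in the shRNA comparison, 44.7 and 41.9 points in the CRISPR comparison, and 38.9 and 36.9 points in the mix.

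The classes varied within these totals, with intervals that overlapped. Alpha subunits had 45 hypermethylated and 16 hypomethylated DMRs in the shRNA comparison (73.8% hypermethylated, 61.6 to 83.2). Beta subunits were evenly divided, 14 against 14 (50.0%, 32.6 to 67.4), and laminins had 27 against 22 (55.1%, 41.3 to 68.1). The CRISPR comparison gave 60.0% of 40 for alpha subunits, 28.6% of 7 for beta subunits and 56.8% of 37 for laminins. When turned to the opposite order, these would be 40%, 71.4% and 43.2%, which puts beta subunits highest instead of lowest. In the mix, alpha subunits had 14 hypermethylated DMRs of 26 (53.8%), laminins had 14 of 20 (70.0%), and beta subunits had 3 of 12 (25%, 8.89 to 53.2), an interval that does not reach the 65.0% of all DMRs. As the mix holds the libraries of the other comparisons, its value is no second observation. Among its beta subunit DMRs of 50 points or more, the share was 66.7%, over 3 DMRs.

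Promoters were taken as tiles within 2 kb of a TSS of the gene itself. In the shRNA comparison, 13 of 22 promoter DMRs were hypermethylated (59.1%, 38.7 to 76.7) beside 67 of 105 in exons and introns (63.8%, 54.3 to 72.4). The same shares over all protein-coding genes were 55.6% and 64.2%. The CRISPR clones gave 62.5% of 8 promoter DMRs and 54.9% of 71 body DMRs, beside 53.3% and 55.8% over all protein-coding genes, and the mix gave 60.0% of 10 and 54.8% of 42, beside 55.3% and 65.0%. Turned to the opposite order of subtraction, the CRISPR shares would be 37.5% for promoters and 45.1% for bodies, which puts promoters below bodies there. Over all protein-coding genes, 1402 of 3004 promoter DMRs and 5368 of 12138 body DMRs would then be hypermethylated. The intervals of promoters and bodies overlapped in each comparison. With the 5'-most TSS of each gene alone, the promoter shares were 44.4% of 18, 50.0% of 4 and 28.6% of 7 in the shRNA comparison, the CRISPR comparison and the mix, beside 64.9%, 56.0% and 58.7% in bodies. When turned, the CRISPR promoter share would stay at 50.0% and the body share would fall below it. At 50 points or more, the promoter share was 33.3% of 3 in the CRISPR comparison and 100% of 3 in the mix. The opposite order would put this CRISPR share above 50.0%. Within gene bodies, introns and exons of the members gave 67.8% and 58.7% in the shRNA comparison, 47.6% and 65.5% in the CRISPR comparison, and 69.6% and 36.8% in the mix. The CRISPR comparison when turned would give 52.4% and 34.5%, with introns above exons as in the other comparisons. The intervals of introns and exons overlapped in each comparison, with 49.1 to 84.4 and 19.1 to 59.0 in the mix. Shares over all DMRs were not computed for introns and exons.

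**Figure D2:**
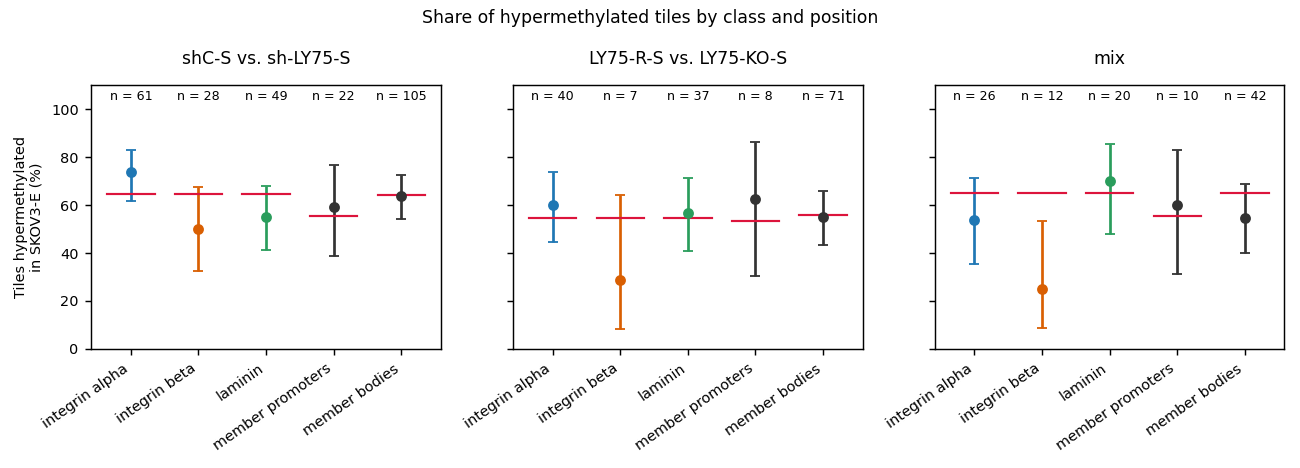
Percentage of DMRs hypermethylated in SKOV3-E cells (y axis) by class, and for promoters and bodies of all members, with 95% Wilson intervals and the number of DMRs above; the red lines give the same share over all listed tiles, all tiles within 2 kb of a protein-coding TSS, or all tiles in protein-coding bodies. All intervals include the red line except that of the beta subunits in the mix, which are at 25%.

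A promoter DMR was present in 13 of 37 genes in the shRNA comparison (35.1%), against 30.2% of protein-coding genes. In the CRISPR comparison it was 6 of 37 (16.2%, against 14.2%), and in the mix 7 of 37 (18.9%, against 15.2%). These counts are near the background. At 50 points or more, the number of genes was 2 in the CRISPR comparison and 2 in the mix. Laminins had the highest share in the shRNA comparison, 6 of 11 genes, beside 5 of 18 alpha subunits and 2 of 8 beta subunits. The laminin genes were LAMA2, LAMA3, LAMA4, LAMA5, LAMB1 and LAMB3, with LAMA2 counted through an internal TSS alone.

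LY75 itself, the targeted gene, had 4 DMRs. The tile that holds its TSS (chr2:160761001-160762000) was hypermethylated in sh-LY75-S by 87.7 points, and the neighbouring tile downstream (chr2:160760001-160761000) by 70.5 points. Both were listed in the mix, with 42.9 and 30.7 points, and neither in the CRISPR comparison, where the only DMR of LY75 lay 65267 bp from a TSS and was hypomethylated, with -100 points. Methylation does not report the knockdown or the knockout, so the labels of the clones were not checked by these values.

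Among the collagen receptors, which pair with ITGB1, 13 of 15 DMRs were hypermethylated in the shRNA comparison, 5 of 8 in the CRISPR comparison and 4 of 7 in the mix, where all DMRs had 64.7%, 54.7% and 65.0%. Turned to the opposite order, the CRISPR count would be 3 of 8, beside 12813 of all 28282 DMRs. ITGA11, the receptor for fibrillar collagen on fibroblasts, accounted for 12 of the 15 DMRs in the shRNA comparison. This was more than any other alpha subunit had there, though 28.6% of the 35 reachable tiles of ITGA11 were listed, beside 29.2% for ITGA8. All 12 were hypermethylated. They ran from the promoter to exons 25 and 26. The tile with the TSS (chr15:68724001-68725000, 59 CpGs) gained 48.4 points and the next tile into intron 1 (chr15:68723001-68724000, 75 CpGs) gained 33.5 points, so a CpG-dense promoter was hypermethylated in sh-LY75-S. The promoter was not listed in the CRISPR comparison, where 5 of 7 DMRs of ITGA11 were hypermethylated (2 of 7 under the opposite order). In ITGA11, 3 tiles were listed in both single comparisons, each time hypermethylated: exons 25 and 26 (chr15:68603001-68604000) with 96.7 and 58.0 points, intron 2 (chr15:68664001-68665000) with 39.1 and 78.0 points, and intron 1 (chr15:68707001-68708000) with 50.0 and 27.8 points.

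The other collagen receptors carried few DMRs. ITGA2, a receptor of platelets and epithelia, had a single one, a promoter tile 182 bp upstream of the TSS with 36.5 points in the shRNA comparison, which is also within 2 kb of a TSS of the antisense gene ITGA2-AS1. ITGA1 had 2 hypomethylated exon tiles, of which exon 28 had -100 points in the shRNA comparison. ITGA10, found in cartilage, had 1 hypomethylated tile downstream of the gene with -61.2 points in the shRNA comparison, near a TSS of ANKRD35.

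The laminin receptors ITGA3, ITGA6 and ITGA7 had no promoter DMR. ITGA6, which pairs with ITGB4 in hemidesmosomes, had 6 DMRs, of which 4 were in intron 1. Its largest difference, -87.4 points, was at exon 2 in the shRNA comparison, within 2 kb of a TSS of the antisense gene ITGA6-AS1. ITGA3, the epithelial laminin receptor, was listed in the CRISPR comparison alone, with 100 points at its last exon, exon 26, outside the coding sequence, and -29.4 points in intron 3. ITGA7, the muscle receptor, had 2 hypermethylated tiles outside the gene, which lie within 2 kb of the TSSs of METTL7B and RDH5.

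Among the RGD receptors, 4 of 11 DMRs were hypermethylated in the shRNA comparison, 5 of 8 in the CRISPR comparison and 3 of 8 in the mix, against the same shares over all DMRs. With the opposite order, the CRISPR count would be 3 of 8. ITGA8 held 8 of the 11 DMRs in the shRNA comparison, 4 in each direction. ITGA8 is a partner of ITGB1 that binds nephronectin in the developing kidney. Its promoter lost methylation in sh-LY75-S over a pair of adjacent tiles, with -43.7 points at the tile with the TSS (chr10:15761001-15762000, 80 CpGs) and -57.2 points just upstream (chr10:15762001-15763000, 29 CpGs). The printed ITGA8 stretch spans the border of these tiles. Neither was listed in the CRISPR comparison, and the mix gave -29.3 and -38.4 points. ITGA8 also had the most DMRs of any alpha subunit in the mix, 6. Beyond the 3' end of the gene, the tile chr10:15552001-15553000 was hypermethylated in both single comparisons, with 50.0 and 37.4 points.

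ITGAV forms the vitronectin receptor and is the partner of ITGB3, ITGB5, ITGB6 and ITGB8. Upstream of its main TSSs, the tile chr2:187453001-187454000 had -62.6 points in the shRNA comparison and -30.0 points in the mix. A tile over exon 2 (chr2:187466001-187467000, 8 CpGs) went opposite ways, with -46.5 points in the shRNA comparison and 56.2 points in the CRISPR comparison. It counts as a promoter tile through an internal TSS 1069 bp away, the one after the printed ITGAV stretch, and is outside all promoters when the 5'-most start alone is used. ITGA5, the fibronectin receptor, and ITGA2B, the platelet fibrinogen receptor, had 1 DMR each, both outside the gene. That of ITGA5 had -56.6 points in the shRNA comparison and lies within 2 kb of a TSS of ZNF385A.

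ITGA9, which pairs with ITGB1 and binds tenascin, had 11 DMRs in the shRNA comparison, of which 10 were hypermethylated and 10 lay in introns. They reached 100 points in intron 1. The CRISPR comparison listed 3, and the tile shared by both, in intron 16 (chr3:37682001-37683000), had 31.9 and -30.2 points.

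The leukocyte alpha subunits, which pair with ITGB2 or ITGB7, are immune receptors. Of their DMRs, 14 of 18 were hypermethylated in the shRNA comparison, 9 of 17 in the CRISPR comparison and 4 of 7 in the mix. Over all DMRs the shares were 64.7%, 54.7% and 65.0%. Under the opposite order the CRISPR count would be 8 of 17, beside 12813 of all 28282. ITGAX (CD11c) had a run of 3 adjacent hypermethylated tiles upstream of its TSS in the shRNA comparison. They had 28.4, 44.9 and 100 points, the last 495 bp from the TSS. The run lies near the TSS of an uncharacterised gene as well, and ITGAX was not listed in the other comparisons. ITGAM (CD11b) had 5 DMRs in the shRNA comparison, all hypermethylated and all between intron 14 and exon 23, with 30.8 to 100 points. Closer to its 3' end, exons 29 and 30 had -66.7 points in the CRISPR comparison and exons 25 to 28 had -30.2 points in the mix. At the ITGAM promoter, the tile with the TSS (chr16:31271001-31272000, 12 CpGs) was listed in the CRISPR comparison with 34.9 points and in the mix with 38.6 points. ITGAD, their neighbour on chromosome 16, had 2 hypermethylated exon tiles with 58.7 and 61.0 points in the shRNA comparison.

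ITGAE, which binds E-cadherin of epithelial cells, and ITGAL, the receptor for ICAM1, showed other patterns. ITGAE had more DMRs in the CRISPR comparison, 12, than any other alpha subunit, against 3 in the shRNA comparison. Of the 12, 7 were hypermethylated (5 under the opposite order), and the differences ranged from -100 to 100 points along the gene, all outside the promoter. Exon 18 (chr17:3649001-3650000) was hypomethylated in both single comparisons, with -58.4 and -28.8 points. In ITGAL, exons 16 and 17 (chr16:30510001-30511000) had -42.5 and -38.1 points, and exon 25 (chr16:30525001-30526000) went opposite ways, with 31.1 and -100 points.

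**Figure D3:**
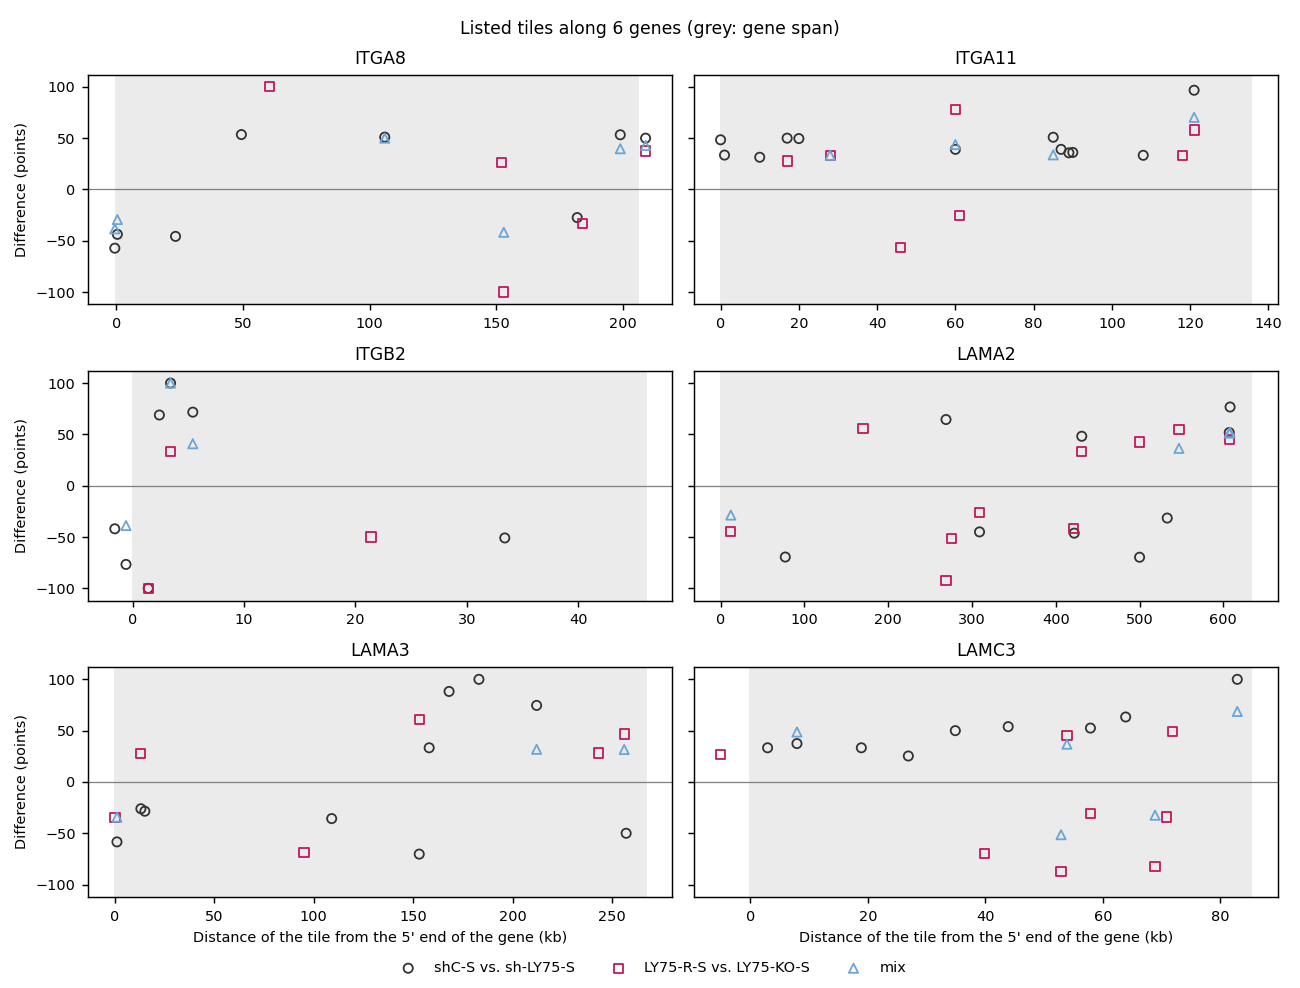
Difference in methylation (y axis, percentage points) of each DMR against the distance of the middle of its tile from the 5' end of the gene span (x axis, kb) in 6 genes, with circles for the shRNA comparison (shC-S, sh-LY75-S), squares for the CRISPR comparison (LY75-R-S, LY75-KO-S) and triangles for the mix. ITGA11 and LAMC3 have circles above 0 alone, ITGA8 and LAMA3 begin below 0, and ITGB2 changes sign within a few kb of its 5' end.

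Among beta subunits, ITGB2, the partner of the leukocyte alpha subunits, had the most DMRs in each comparison, with 7, 3 and 3 in the order above. Of its 32 reachable tiles 15.6% were listed in the shRNA comparison, beside 37.5% of 8 for ITGB6. The promoter tiles of ITGB2 changed sign over short distances. Around the TSSs that lie upstream of its canonical start, the tile chr21:46348001-46349000 was hypermethylated in all comparisons, with 100, 33.7 and 100 points, and the next tile upstream had 68.9 points in the shRNA comparison. The tile chr21:46350001-46351000, 1213 bp upstream of a TSS, was completely hypomethylated in both single comparisons, with -100 and -100 points. Further upstream, the CpG-dense tile chr21:46352001-46353000 (93 CpGs) had -76.7 points in the shRNA comparison and -38.8 points in the mix. Downstream, chr21:46346001-46347000 had 71.7 points in the shRNA comparison, and chr21:46330001-46331000, at an internal TSS, had -50.0 points in the CRISPR comparison. An uncharacterised gene has a TSS within 2 kb of the upstream tiles, so they may belong to either gene.

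ITGB3, the partner of ITGAV and ITGA2B, was hypermethylated at all 4 of its DMRs in the shRNA comparison. The promoter tile 193 bp upstream of the TSS had 35.7 points. Intron 2 held a run of 3 tiles with 100, 78.0 and 100 points. For the CRISPR clones, the first tile of the run (chr17:45356001-45357000) had -85.3 points and the last (chr17:45358001-45359000) had 100 points, so neighbours 2 kb apart disagreed in 1 comparison.

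The other partners of ITGAV went in single directions. ITGB5 was hypermethylated in its introns and exon 3, with 30.1 to 100 points at 4 DMRs in the shRNA comparison. ITGB6 and ITGB8, subunits of integrins that activate TGF-beta, were hypomethylated at every DMR of every comparison, with the order of subtraction taken above. Under the opposite order, the 1 DMR of each in the CRISPR comparison would be hypermethylated. In ITGB6, exon 4 (chr2:161051001-161052000) had -32.6, -67.9 and -59.4 points in the shRNA comparison, the CRISPR comparison and the mix. In ITGB8, intron 3 (chr7:20416001-20417000) had -66.7, -36.7 and -48.5 points, and exon 12 had -71.8 points in the shRNA comparison. ITGB8 had no promoter DMR, and no promoter tile of ITGB6 was within reach of MspI fragments.

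ITGB4, the hemidesmosome subunit, was hypomethylated near its 3' end in the shRNA comparison, with -99.8 points at a CpG-dense tile over exon 33 (chr17:73749001-73750000, 65 CpGs) and -70.5 points in the next tile. At exons 3 to 5 it had 36.6 points. ITGB1, the partner of most alpha subunits, had no promoter DMR and 3 DMRs in all, from -98.2 points in the extended part of the gene upstream of its canonical start to 45.9 points. ITGB7, the partner of ITGAE, had 45.1 points at exons 4 and 5 (58 CpGs) and -50.0 points upstream of the gene. ITGB1, ITGB4, ITGB5 and ITGB7 were not listed in the CRISPR comparison.

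Laminin alpha chains held most of the laminin DMRs, 36 of 49 in the shRNA comparison and 27 of 37 in the CRISPR comparison. LAMA3 is the alpha chain that anchors epithelial cells through ITGA6 and ITGB4, and it is transcribed from a distal and an internal promoter. With LAMA1 it had the most DMRs of any laminin gene in the shRNA comparison, 10. At the distal promoter, the tile with the TSS (chr18:21269001-21270000, 93 CpGs), which holds the printed stretch, had -34.3 points in the CRISPR comparison. The next tile (chr18:21270001-21271000, 57 CpGs) had -58.4 points in the shRNA comparison and -34.3 points in the mix. Both single comparisons thus had a hypomethylated DMR at this promoter, in adjacent tiles. The tile at the internal promoter, within intron 38 of the canonical transcript (chr18:21452001-21453000, 21 CpGs), had 100 points in the shRNA comparison, so the promoters of LAMA3 moved in opposite directions there. Between them, exons 28 and 29 (chr18:21422001-21423000) had -70.3 and 61.0 points in the single comparisons, and intron 1 (chr18:21282001-21283000) had -26.1 and 27.7 points.

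LAMB3, which joins LAMA3 in the same epithelial trimer, had a promoter DMR with 100 points at the tile with its TSS (chr1:209825001-209826000, 18 CpGs) in the shRNA comparison and 39.7 points in the mix. Its exons 15 and 16 and exon 11 were hypomethylated in the shRNA comparison, with -50.7 and -50.9 points. LAMB3 was not listed in the CRISPR comparison.

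LAMA2, the alpha chain of muscle laminin, is the longest of these genes at 633429 bp and had the most DMRs of any laminin gene in the CRISPR comparison, 10. The tile chr6:129811001-129812000, which holds an internal TSS in intron 56, was hypermethylated in all comparisons, with 51.8, 44.9 and 51.3 points. The next tile had 76.7 points in the shRNA comparison. These tiles hold 5 and 11 CpGs, and the canonical LAMA2 promoter was not listed. Elsewhere in LAMA2, exon 24 (chr6:129635001-129636000) was hypermethylated in both single comparisons with 48.2 and 33.3 points, and exon 12 (chr6:129513001-129514000) was hypomethylated in both with -45.0 and -26.0 points. Intron 7 (chr6:129473001-129474000) went from 64.5 to -92.7 points, and exon 35 (chr6:129704001-129705000) from -69.7 to 42.6 points.

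LAMA1, the alpha chain of embryonic basement membranes, had no promoter DMR, and 3 of the 4 tiles it had in both single comparisons disagreed in sign. Exon 24 (chr18:7012001-7013000) showed the complete opposite, -100 and 100 points. Exon 45 (chr18:6976001-6977000) had -27.2 and 40.5 points, and intron 3 (chr18:7077001-7078000) had 43.8 and -49.2 points. Intron 47 (chr18:6972001-6973000) was hypermethylated in both, with 74.5 and 51.9 points. If the CRISPR comparison were turned, the other 3 tiles would have matching signs and intron 47 would not.

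LAMA5, the widespread alpha chain of adult epithelia, had -100 points at its promoter, 633 bp upstream of the TSS (chr20:60943001-60944000, 39 CpGs), in the shRNA comparison, while a tile 2 kb further upstream had 100 points. Its body was hypermethylated in that comparison, with 36.2 to 87.7 points at 4 DMRs. Exons 32 to 34 (chr20:60904001-60905000) were hypermethylated in both single comparisons with 51.1 and 26.9 points, and intron 2 (chr20:60933001-60934000) had 36.2 and -31.1 points. LAMA4, a chain of blood vessel laminins, had -92.3 points 89 bp upstream of its TSS in the shRNA comparison, in a tile of 8 CpGs (chr6:112576001-112577000).

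LAMB1, the beta chain of most laminins, had a hypomethylated promoter tile in the shRNA comparison (chr7:107642001-107643000, 74 CpGs, -41.4 points) and a hypermethylated neighbour in the CRISPR comparison (chr7:107641001-107642000, 27.2 points). The gamma chains had no promoter DMR. LAMC3, a chain with restricted expression, was hypermethylated at all 9 of its DMRs in the shRNA comparison, from 25.3 points at exon 4 to 100 points at exon 28. The CRISPR comparison differed, with 5 of its 8 DMRs hypomethylated, as low as -87.2 points in intron 13, and exon 14 (chr9:133942001-133943000), the tile in both, had 52.5 and -30.7 points. Turned to the opposite order, those 5 of 8 would be hypermethylated, and exon 14 would have the same sign in both. With LAMA5, LAMC3 had the most laminin DMRs in the mix, 5. Of the reachable tiles, 8.33% were listed there for LAMA5 and 9.43% for LAMC3, beside 16.7% of 12 for LAMB3. LAMC1, the gamma chain of most laminins, had 1 DMR, at exon 22 with 56.3 points in the CRISPR comparison.

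Of all member DMRs, 29 were found in both single comparisons, or 21.0% of the shRNA set and 34.5% of the CRISPR set. Over all tiles the shares were 16.3% and 29.5%. The direction was the same at 16 of the 29 (55.2%, 37.5 to 71.6), beside 52.6% of the 8345 such tiles overall. Alpha subunits had the same direction at 6 of 9, beta subunits at 5 of 6 and laminins at 5 of 14. The same direction was seen at 3 of 4 promoter tiles and at 12 of 24 in gene bodies. If the CRISPR comparison were turned, the same direction would be seen at 13 of the 29, with 3 of 9, 1 of 6 and 9 of 14 by class, 1 of 4 promoter tiles and 12 of 24 in bodies, beside 3958 of the 8345 overall. These shares rest on few tiles and their intervals overlap. In 10 tiles both comparisons showed hypermethylation and in 6 both showed hypomethylation. With the CRISPR comparison turned, these counts would be 7 and 6.

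**Figure D4:**
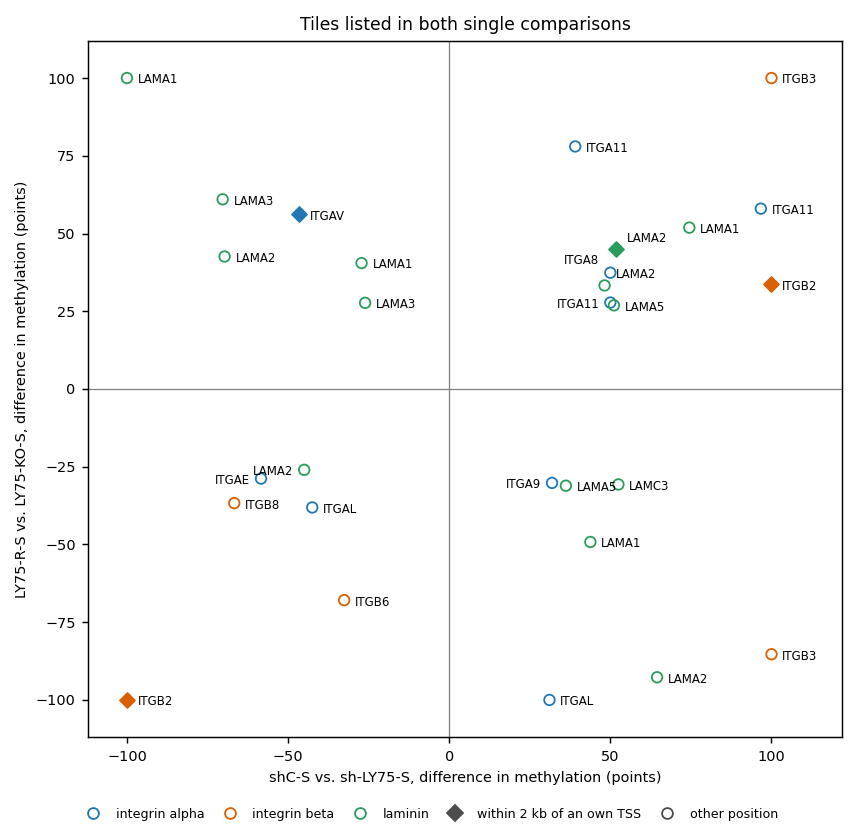
Difference in methylation in the CRISPR comparison (y axis, percentage points) against that in the shRNA comparison (x axis, percentage points) for the 29 member DMRs listed in both, 1 point per tile, with diamonds for tiles within 2 kb of a TSS of the gene. The upper right and lower left quadrants hold the 16 tiles with the same direction, and the other quadrants hold 13, of which 9 are laminin tiles.

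Most member DMRs were of moderate CpG content, with a median of 18.0 CpGs in hypermethylated and 17.0 in hypomethylated tiles in the shRNA comparison, beside 20 and 18.0 over all DMRs. Tiles of 50 or more CpGs were few, 3 of 86 hypermethylated (3.49%) and 5 of 52 hypomethylated ones (9.62%) in that comparison, as they were among all DMRs (9.09% and 12%). They were the promoters of ITGA11, ITGA8, LAMA3 and LAMB1, exons of ITGB4 and ITGB7 and the tile upstream of ITGB2. The LAMA3 promoter was the only one in the CRISPR comparison. Adjacent DMRs with the same direction formed 12 runs in the shRNA comparison, 1 in the CRISPR comparison (in intron 2 of ITGAE) and 3 in the mix. Differences of 100 points made up 11.6% of member DMRs in the shRNA comparison and 13.1% in the CRISPR comparison, beside 13.1% and 9.37% of all DMRs. The read depth behind them was not part of the values used. Of the 195 tiles, 30 were within 2 kb of a TSS of another gene of any kind.

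Genes that work with integrins and laminins were counted at their promoters by the same rule, 45 genes in all. Promoter DMRs were present in 22 of them in the shRNA comparison (48.9%), in 9 in the CRISPR comparison (20%) and in 10 in the mix (22.2%), where protein-coding genes had 30.2%, 14.2% and 15.2%. Among 22 genes that link integrins to actin, 5 had hypermethylated promoter DMRs alone, 5 hypomethylated ones alone and 2 had both in the shRNA comparison. Examples are the tensin TNS1, with up to 41.3 points there and 29.6 points in the CRISPR comparison, the adaptors LIMS2, with 40.3 and up to -100 points, and BCAR1, with -65.9 and 34.1 points, which went opposite ways, the adaptor VCL (vinculin) with -100 points, and the kinase SRC with up to -94.6 points at 3 tiles. Of the same 22, the CRISPR comparison had 3 hypermethylated alone, 1 hypomethylated alone and 1 both. When turned, it would have 1 hypermethylated alone and 3 hypomethylated alone. TNS1 would then go opposite ways in the single comparisons, and LIMS2 and BCAR1 the same way. Of the 4 basement membrane partners of laminin, NID1, NID2 and HSPG2 were hypomethylated in the shRNA comparison, with up to -33.4, -45.8 and -35.3 points, and AGRN was hypermethylated in the CRISPR comparison with 25.2 points.

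Of 9 other laminin receptors and hemidesmosome partners, 3 had promoter DMRs in the shRNA comparison and 2 in the CRISPR comparison. PLEC (plectin), which ties ITGB4 to keratin, had 8 hypermethylated and 5 hypomethylated promoter tiles in the shRNA comparison, and the tetraspanin CD151 had 1 of each there, the larger with -94.9 points, and 1 in the CRISPR comparison with -100 points. In the mix CD151 again had 1 of each, the larger with 33.2 points. Of 10 other integrin ligands, 4 had promoter DMRs in the shRNA comparison: NPNT (nephronectin) with 88.4 points, ICAM1 with 59.0 points, MADCAM1 with 2 hypermethylated tiles and 1 hypomethylated, the largest at 66.7 points, and VTN (vitronectin) with -68.4 points. VCAM1 was the only one in the CRISPR comparison, with 50.0 points.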

How the data were processed

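RRBS reads of 50 bp from 4 libraries had been trimmed (Trim Galore 0.4.1 in the submitters' processing notes) and aligned with Bismark 0.16.1 by the authors, who compared libraries with methylKit in 1000 bp tiles on hg19. For every tile past 25 points and a q-value of 0.01 the authors deposited the difference in percent methylation with its p-value and q-value. These are the authors' own comparisons between libraries, not between conditions, and were used as deposited because no value per library was at hand. The tables keep q-values up to 0.00986. The coverage minimum, the methylKit version and how the libraries on each side of the mix were combined are not given in the sources used here.

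Tiles were assigned with GENCODE release 44 on GRCh37 (basic transcripts), using Python 3.11.15, numpy 2.4.6, pandas 2.3.3, pysam 0.24.0, samtools 1.23.1 and matplotlib 3.10.9. A tile within 2 kb of a TSS of the gene counted as promoter, and otherwise as exon, intron or flank. Reachable tiles were those read from the ends of MspI fragments of 40 to 220 bp. Wilson intervals (95%) cover counting error alone, and RRBS reads without molecular identifiers may be copies of one molecule. The direction of the CRISPR comparison was set by a least-squares fit without intercept of the mix on both single comparisons over 4250 tiles (coefficients 0.534 and 0.435), which a mix grouped the other way for these clones would fit equally well. The name of the CRISPR table puts LY75-KO-S first, whereas that of the shRNA table puts shC-S first. The assignment was tested on simulated tiles.

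Genes named in full were those with promoter tiles in both single comparisons, the 3 largest promoter differences per class and single comparison, and the gene with most DMRs per class and comparison, with all tiles in both single comparisons. Other members are given in brief. Members and lists were chosen with earlier results of these data known. Alternatives changed the window, the size and q thresholds, the promoter definition, the order of subtraction, and the tiles of neighbouring genes or with complete differences. One further stretch that met the rule for printed sequence is not reported here.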

Additional observations from a re-analysis of the deposited data

Results flagged for a closer look

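In ITGAV, a tile over exon 2 (chr2:187466001-187467000), 1069 bp from an internal TSS, had -46.5 points in the shRNA comparison and 56.2 points in the CRISPR comparison. It drew attention as the promoter tile of an integrin or laminin gene that moved in opposite directions in the 2 single comparisons. Each value compares 1 library with 1 other, and the difference between them was not tested. With the opposite order of subtraction in the CRISPR comparison the signs would match. Under the order taken, opposite signs were common among tiles listed in both single comparisons. They were seen at 13 of 29 member tiles, 1 of 4 member promoter tiles and 3958 of all 8345 such tiles.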

How the results depend on the processing

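Of 152 recomputed values, 137 stayed within 1.5 times the count or within the 95% interval of the share given above. This held for every value with gene spans without the 5 kb extension, with q-values under 1e-10, without tiles in or near other protein-coding genes, without differences of 100 points, and with promoters of 1 kb. With differences of 50 points or more, fewer DMRs remain by construction: 76 in the shRNA comparison, 34 in the CRISPR comparison and 13 in the mix, and genes with a promoter DMR fell to 2 in the CRISPR comparison and 2 in the mix. The hypermethylated share in the mix then became 66.7% for beta subunits and 100% for promoters, over 3 DMRs each. With the 5'-most TSS alone, which leaves out the internal promoters, the promoter share became 44.4% of 18 DMRs in the shRNA comparison, 50.0% of 4 in the CRISPR comparison and 28.6% of 7 in the mix. With the opposite order of subtraction, the hypermethylated share in the CRISPR comparison became 44%, and that of tiles with the same direction in both single comparisons 44.8%. The parts were turned as well, which was chosen after seeing the data. The hypermethylated share in the CRISPR comparison became 40% for alpha subunits, 71.4% for beta subunits and 34.5% for exons, and the share with the same direction became 33.3% for alpha subunits, 16.7% for beta subunits and 64.3% for laminins. The shares of laminins (43.2%), promoters (37.5%), bodies (45.1%) and introns (52.4%) in the CRISPR comparison stayed within their intervals, although all 4 crossed 50%, and promoters went from above bodies to below. No coverage minimum could be varied, since the tables hold no read numbers, and the precision of single tiles is unknown. No paired analysis was possible because the tables hold no value per library, and no result comes from a test.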
